A study of Mus musculus with 8 samples.

Results

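Stretches of 4 Mb on mouse chromosome 5 (104 to 108 Mb, GRCm39) and chromosome 8 (18 to 22 Mb, GRCm39) held about 4 times as many RNA-binding peaks of full-length ALKBH5 as of ALKBH5 without its C-terminal disordered region. Every peak with its summit, its highest point, inside either stretch was taken, 489 of the 72953 peaks of the 4 deposited lists. The block on chromosome 5 held 253 of them and the block on chromosome 8 held 236. The blocks were chosen by the number of full-length against other summits in the same 4 lists. All differences between the genotypes inside them are therefore descriptions of these libraries, without a test.

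Both genotypes were made in E14TG2a, a pluripotent line of mouse embryonic stem cells, and grown with LIF and the kinase inhibitors PD0325901 and CHIR99021. Wild-type cells carry full-length ALKBH5 (FL), and Alkbh5 del-cIDR cells carry an endogenous ALKBH5 that lacks the C-terminal intrinsically disordered region. The labels do not say whether the del-cIDR cells are 1 clone or whether replicates were separate cultures. Nuclei were used for eCLIP, which maps the RNA that a protein touches after UV crosslinking, with 2 immunoprecipitates per genotype analysed here of the 8 samples, which also include inputs. The lists named wt were taken as FL and those named KI as del-cIDR, the only other genotype.

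ALKBH5 is an enzyme that removes N6-methyladenosine, the most common internal mark of messenger RNA, and acts mainly in the nucleus. The mark is written by the METTL3 and METTL14 complex and is read by YTH proteins, which take part in splicing, export and decay of RNA. In embryonic stem cells the mark is known for its part in the exit from pluripotency. Intrinsically disordered regions are protein stretches without a fixed fold, and the series title asks whether they restrain where demethylases act. The genes under the blocks, the sequence at the summits and markers of the cell line were not analysed here, because the annotation used here is on another build, GRCm38.p6. Peaks carry no strand, and read numbers are unknown. More RNA from a locus and more binding to it cannot be told apart in these lists.

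Full-length ALKBH5 had a like number of peaks in each block, and so did the del-cIDR protein at a lower level. On chromosome 5 the FL libraries held 99 and 101 peaks and the del-cIDR libraries 27 and 26. The means were 100 ± 1.41 and 26.5 ± 0.707 peaks (SD, n = 2 per genotype), a ratio of 3.77. On chromosome 8 the FL libraries held 98 and 91 peaks and the del-cIDR libraries 24 and 23. The means there were 94.5 ± 4.95 and 23.5 ± 0.707 (SD, n = 2 per genotype), a ratio of 4.02. With peaks of at least 4-fold enrichment alone the ratio was 3.34 on chromosome 5 and 10.3 on chromosome 8. That cut does not fall alike on the lists, whose median enrichments were 3.80-fold and 3.60-fold in FL and 3.17-fold and 3.16-fold in del-cIDR. In both blocks the genotypes lay apart and the replicates close together. As a share of each list, the chromosome 5 block took 0.498% and 0.607% of the FL peaks and 0.154% and 0.138% of the del-cIDR peaks. The chromosome 8 block took 0.493% and 0.547% against 0.136% and 0.122%.

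On chromosome 8 the excess was one of many peaks in few places, while on chromosome 5 FL also held more places. When peaks of a library within 5 kb of each other were joined, the FL libraries held 41 and 40 joined peaks on chromosome 5 and the del-cIDR libraries 24 and 26, a ratio of 1.62. The same step on chromosome 8 left 18 and 13 in FL and 18 and 18 in del-cIDR, a ratio of 0.861, so the direction turned. Each joined FL peak on chromosome 8 gathered 5.44 and 7 deposited peaks on average in the 2 replicates, against 1.33 and 1.28 in del-cIDR. The covered length still differed widely. Deposited peaks covered 70.9 and 50.5 kb in FL against 8.56 and 8.80 kb in del-cIDR on chromosome 5, and 48.7 and 34.4 kb against 7.83 and 9.47 kb on chromosome 8.

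The lower edge of the chromosome 5 block fell among FL peaks, and the other 3 edges lay clear of any peak. The last summit below the chromosome 5 block and the first inside it were both from FL replicate 2, at 103999550 (828 bp wide, 3.67-fold enrichment) and 104000253 (244 bp, 2.24-fold). At the upper edge the last summit inside, from FL replicate 1, was at 107986930 (349 bp, 2.36-fold) and the next outside, from del-cIDR replicate 1, at 108009198 (300 bp, 9.07-fold). The chromosome 8 block had its first summit, from FL replicate 2, at 18652409 (483 bp, 3.37-fold) and its last, from FL replicate 1, at 21472267 (300 bp, 6.78-fold). Its nearest neighbours outside were del-cIDR replicate 2 peaks of 301 bp, at 17585617 with 6.46-fold and at 22320686 with 7.90-fold enrichment. The fold enrichments here and below are the authors' own, over the background of their peak caller, and describe peaks within a list. In the 1 Mb below and above the chromosome 5 block the FL libraries held 8 and 5, then 17 and 10 peaks, and the del-cIDR libraries 3 and 6, then 14 and 15. Beside the chromosome 8 block they held 1 and 1, then 5 and 4 FL peaks, and 0 and 1, then 5 and 4 del-cIDR peaks.

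Along each block the FL peaks crowded into a few of the 16 bins of 250 kb. On chromosome 5 the bin from 104.75 to 105 Mb held 28 and 30 FL summits against 3 and 2 of del-cIDR. The bin before it, from 104.5 Mb, held 20 and 21 against 6 and 3. A further group lay from 106.75 to 107 Mb, with 14 and 11 against 2 and 0. These bins and the one from 104 to 104.25 Mb (5 and 9 against 0 and 2) were the 4 with the most FL summits. They held 67.7% and 70.3% of the FL peaks of the block and 40.7% and 26.9% of its del-cIDR peaks. The bins were picked by their FL summits, so the 2 shares do not compare the spread of the genotypes. A del-cIDR library, with 27 or 26 peaks in the block, had at most 6 summits in a bin. Summits lay in 12 and 13 bins in FL and in 13 and 13 in del-cIDR.

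On chromosome 5 the bins did not all run the same way. Of the 15 bins with a summit, 10 had both FL numbers above both del-cIDR numbers, against 19.2% of the 7291 bins with a summit on all assembled chromosomes. This contrast chose the block, so nothing is read from the share. In 2 bins, from 105.25 and from 106.5 Mb, both del-cIDR libraries had 1 summit and FL had none, where 30.9% of all bins had both del-cIDR numbers higher. In the bins from 104.25, 106.25 and 107 Mb the del-cIDR mean was also the higher. The bin from 107 Mb held 2 and 3 FL against 3 and 4 del-cIDR summits, which is a touching range.

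On chromosome 8 most peaks of both genotypes lay in the same 4 bins. The bin from 20.5 to 20.75 Mb held 28 and 28 FL against 6 and 8 del-cIDR summits. From 20 to 20.25 Mb there were 23 and 22 against 7 and 4, and from 19.75 to 20 Mb 14 and 14 against 3 and 3. The bin from 21 to 21.25 Mb held 13 and 12 against 4 and 4. These 4 bins had 79.6% and 83.5% of the FL and 83.3% and 82.6% of the del-cIDR peaks of the block. The bin from 18.5 to 18.75 Mb held 4 and 4 FL summits and no del-cIDR summit. FL was above del-cIDR without overlap in 7 of the 9 bins with a summit, against 19.2% of the 7291 bins overall. This block too was chosen by that contrast, so nothing is read from the share. No bin had the higher del-cIDR mean, and 7 bins were empty in all 4 libraries.

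**Figure D1:**
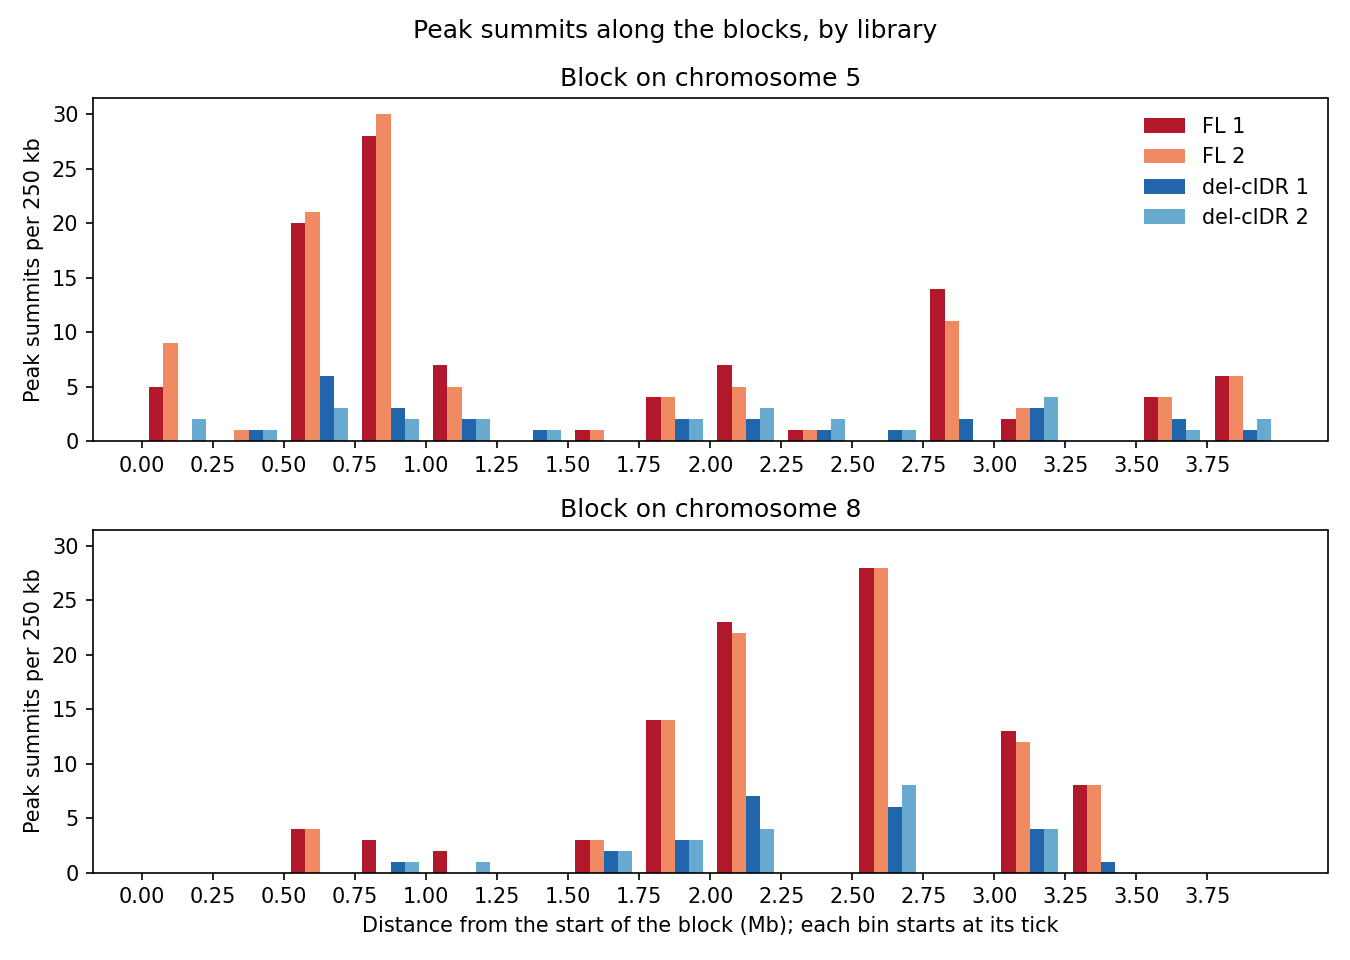
Peak summits per 250 kb along each block for the 4 libraries; the x axis is the distance from the start of the block in Mb and each bar is 1 library. The FL bars reach 30 summits on chromosome 5 and 28 on chromosome 8, and no del-cIDR bar is above 8.

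Within the bins the FL peaks followed each other at short steps. The median distance between neighbouring summits of a library was 2.76 and 2.23 kb in FL and 84.0 and 126 kb in del-cIDR on chromosome 5. The same distance on chromosome 8 was 1.38 and 1.28 kb in FL and 21.0 and 16.6 kb in del-cIDR. These distances follow in part from the number of summits, by which the blocks were chosen. The longest stretch without an FL summit on chromosome 5 was 593 kb in replicate 1, from 105041841 to 105634506, and 418 kb in replicate 2, which ended at nearly the same place, 105634873.

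To describe these groups, summits of all 4 libraries were strung into runs whenever neighbours lay within 25 kb, and runs of at least 10 summits were kept, a rule set after the lists were seen. The chromosome 8 block held 7 such runs with 207 of its 236 summits, and the chromosome 5 block 11 runs with 199 of 253. On all assembled chromosomes 1876 runs of this kind held 58.2% and 63.9% of FL and 50.04% and 51.1% of del-cIDR summits. Runs on chromosome 8 took in 86.7% and 92.3% of the FL and 87.5% and 73.9% of the del-cIDR summits of the block. Those on chromosome 5 took in 86.9% and 83.2% against 59.3% and 50%.

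The runs on chromosome 8 held 7 to 16 summits of each FL library. The first, from 19817638 to 19835658, held 14 and 14 FL and 2 and 0 del-cIDR summits. The second, from 19998826 to 20046234, held 13 and 13 FL and 3 and 1 del-cIDR summits. The third, from 20125977 to 20181939, held 10 and 9 FL and 5 and 4 del-cIDR summits. Numbers were highest in the fourth, from 20539202 to 20590971, with 16 and 15 FL and 3 and 5 del-cIDR summits. The fifth, from 20680229 to 20729122, held 12 and 13 against 3 and 3, and the sixth, from 21073037 to 21132597, 13 and 12 against 4 and 4. The seventh was the shortest, 9.55 kb from 21368349 to 21377902, with 7 and 8 FL and 1 and 0 del-cIDR summits. FL replicates differed by no more than 1 summit in any of the 7 runs.

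In the second to sixth runs, FL and del-cIDR summits lay mostly at different ends. FL summits filled the low-coordinate end there, and most del-cIDR summits lay further up. In the first and seventh runs FL summits reached the upper end, with the last at 18.0 of 18.0 kb and at 9.53 of 9.55 kb. The median distance from the first summit of the run was 6.60 and 6.49 kb for FL and 37.8 and 44.9 kb for del-cIDR over all 7 runs. Only 1 of 85 and 0 of 84 FL summits lay more than 30 kb from the start of their run, against 14 of 21 and 13 of 17 del-cIDR summits. The first and seventh runs were 18.0 and 9.55 kb long, so none of their summits could lie beyond that cut. The cut, like the runs, was set after the lists were seen. In all 6 runs with at least 2 summits of each genotype the del-cIDR median was the more distant. There 27 of 37 del-cIDR summits lay beyond the last FL summit and 35 of 37 beyond the third quartile of the FL summits. The fifth run showed the order most plainly, with its last FL summit at 18.3 kb and its first del-cIDR summit at 31.7 kb. Each of the second to sixth runs had, among others, a del-cIDR replicate 1 summit at a like distance, 43.0, 43.2, 44.9, 43.15 and 44.7 kb. Whether the runs are independent of each other was not tested, and the treatment of reads that match several places is not given.

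Some summits departed from this order. The second run opened with a summit of both del-cIDR libraries at 19998826, and its first FL summit lay 1.41 kb further. Sites with peaks of both genotypes lay near the upper end of the FL groups, at 18.2 kb in the third run, 16.8 kb in the fourth and 17.7 kb in the sixth. The one FL summit beyond 30 kb, at 32.3 kb in the third run, shared its site with del-cIDR replicate 1. Before the runs, del-cIDR replicate 1 had a peak of 390 bp from 19747511 to 19747900, at 3.16-fold enrichment, and replicate 2 one of 338 bp at 3.15-fold inside it. The order also rested on the length of the step. With neighbours within 50 kb the 7 runs were the same, but with 10 kb most upper groups of del-cIDR summits fell out of the runs, and 0 of the 10 del-cIDR summits left in 5 runs lay beyond the last FL summit, though 8 lay beyond the third quartile.

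Chromosome 5 did not show this arrangement. In its 6 runs with at least 2 summits of each genotype the del-cIDR median was the more distant in 3, and 7 of 25 del-cIDR summits lay beyond the last FL summit. The median distance from the start of a run was 21.6 and 25.6 kb for FL and 22.6 and 15.95 kb for del-cIDR. The difference between the blocks in this order was not tested. The fullest runs on chromosome 5 were almost without del-cIDR peaks. A run from 104757736 to 104841001 held 19 and 19 FL and 0 and 1 del-cIDR summits, and one from 104634579 to 104701468 held 15 and 14 against 1 and 0. The run from 104899213 to 105004811, 106 kb long, held 11 and 12 against 3 and 1.

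Del-cIDR summits made up more of 2 other runs of chromosome 5. One from 104583128 to 104608085 held 4 and 5 FL and 4 and 2 del-cIDR summits. That from 107096549 to 107131681 was the single run of either block with more del-cIDR than FL summits, 2 and 3 FL against 3 and 4 del-cIDR.

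**Figure D2:**
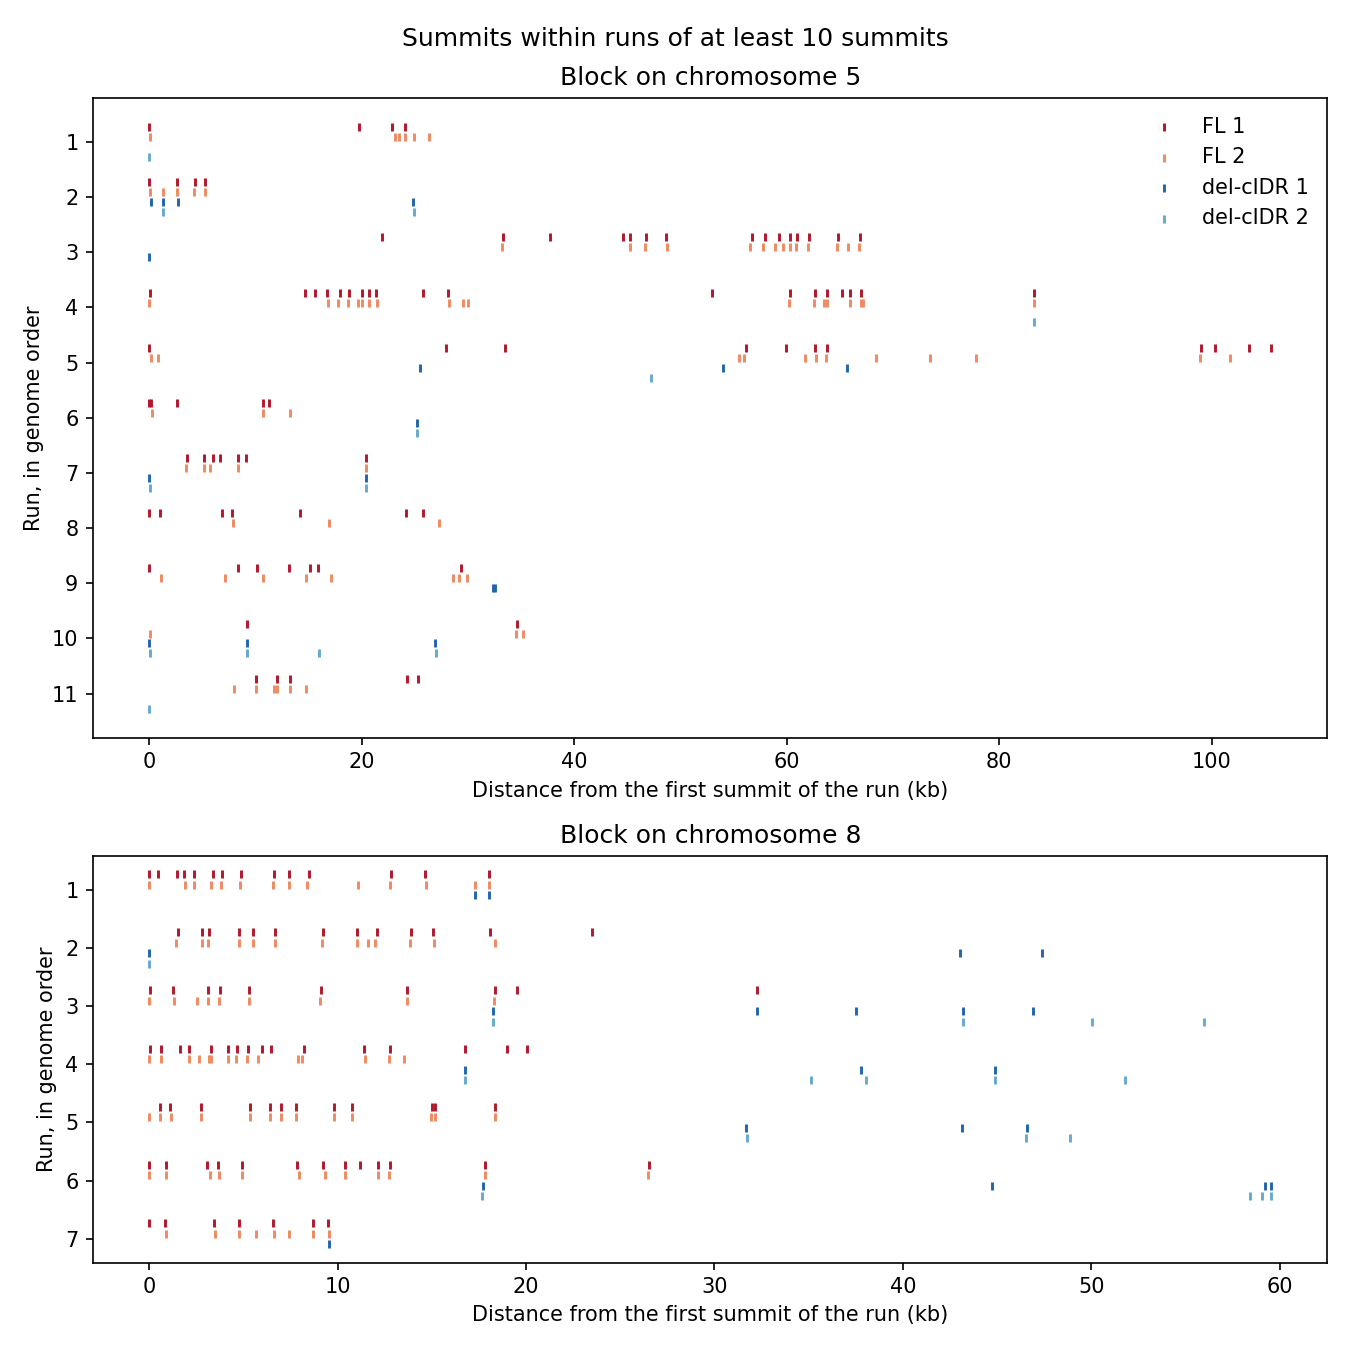
Summits in the runs of each block; the x axis is the distance in kb from the first summit of the run, each row is 1 run in genome order and each tick is 1 summit, coloured by library. On chromosome 8 FL ticks reach no further than 32.3 kb and most del-cIDR ticks above 30 kb, while on chromosome 5 the genotypes show no shared order.

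The median FL peak was wider than that of its list on chromosome 5, more so in replicate 1, and near it on chromosome 8. The median peak width on chromosome 5 was 486 and 321 bp in FL and 301 and 302 bp in del-cIDR, against 379, 291, 325 and 331 bp over the whole lists in the same order. FL peaks of the block were thus wider than their list and del-cIDR peaks narrower. The smallest peak of each list, its minimum width, was 297 and 243 bp in FL and 300 and 301 bp in del-cIDR. At that minimum stood 8.08% and 10.9% of the FL and 40.7% and 42.3% of the del-cIDR peaks of chromosome 5. The whole lists had 12.4% and 17.1% of FL and 28.3% and 26.7% of del-cIDR peaks there. On chromosome 8 the shares were 2.04% and 2.20% in FL and 25% and 26.1% in del-cIDR, so few FL peaks were at the minimum there too. Medians on chromosome 8 were 386 and 302 bp in FL and 310.5 and 344 bp in del-cIDR, so the genotypes overlapped. FL replicate 2 lay below both del-cIDR libraries there, and its list has the lowest minimum.

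Wide peaks were few and mostly in FL replicate 1. Of the FL peaks, 6 of 99 and 2 of 101 on chromosome 5 were 2 kb or wider, and 1 of 98 and 0 of 91 on chromosome 8. Neither del-cIDR library had one. Such peaks made up 4.15% and 2.17% of the whole FL lists and 0.0910% and 0.138% of the del-cIDR lists. Without FL replicate 1 the number on chromosome 5 fell from 8 to 2. The widest on chromosome 5 ran from 104665383 to 104670878 in replicate 1, 5496 bp with 24.1-fold enrichment, and from 104665351 to 104670801 in replicate 2, 5451 bp with 15.3-fold. The next ran from 106782436 to 106786437, 4002 bp at 8.81-fold, and in replicate 2 measured 3804 bp at 5.79-fold. Both had nearly the same ends in the 2 replicates and no del-cIDR peak. The third by width was 2464 bp from 104730173 to 104732636 at 2.95-fold in replicate 1, and only 1228 bp from 104785576 to 104786803 at 5.40-fold in replicate 2.

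On chromosome 8 the widest FL peak was 2331 bp, from 21373912 to 21376242 in replicate 1, with 21.3-fold enrichment. In replicate 2 a peak of 1015 bp and 17.2-fold, from 21374585 to 21375599, lay inside it. These were the highest enrichments of each FL list in the block and belong to the seventh run, whose FL peaks had a median enrichment of 11.9-fold. A peak from 19822245 to 19823597 in the first run followed, 1353 bp at 13.1-fold, and measured 1270 bp at 8.69-fold in replicate 2. One in the sixth run began at 21075185 in both replicates and measured 1332 bp at 8.90-fold and 1177 bp at 7.42-fold. The widest del-cIDR peaks were 412 and 609 bp on chromosome 5 and 456 and 871 bp on chromosome 8.

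**Figure D3:**
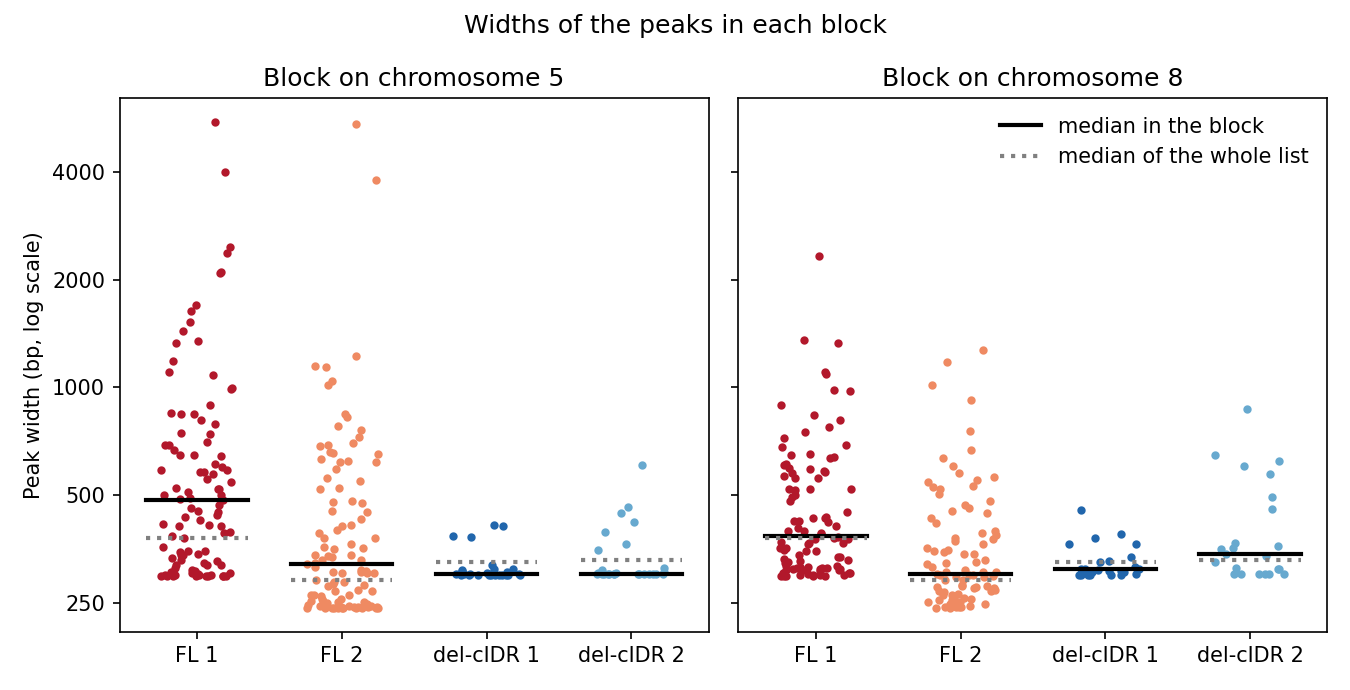
Width in bp (log scale) of each peak in the blocks, by library; black lines are the medians in the block and dotted grey lines the medians of the whole list. FL peaks of chromosome 5 reach 5496 bp, while no del-cIDR peak of either block is wider than 871 bp.

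FL replicates placed their peaks at the same sites more closely on chromosome 8 than on chromosome 5. On chromosome 8, 79.6% of the peaks of FL replicate 1 overlapped a peak of replicate 2 by at least 1 bp, and 94.5% the reverse, with a Jaccard index (shared over total covered bases) of 0.643. On chromosome 5 these values were 60.6%, 75.2% and 0.511, and over the whole lists 54.0%, 76.2% and 0.461. The del-cIDR replicates overlapped at 66.7% and 69.2% of peaks on chromosome 5 (Jaccard 0.489), at 58.3% and 60.9% on chromosome 8 (0.357), and at 64.5% and 59.7% over the whole lists (0.404). Across genotypes 2.20 to 6.12% of FL peaks on chromosome 8 and 6.06 to 10.9% on chromosome 5 overlapped a del-cIDR peak, against 15.9 to 21.9% over the whole lists. From the other side, 22.2 to 42.3% of del-cIDR peaks on chromosome 5 and 8.70 to 25% on chromosome 8 overlapped an FL peak, against 18.5 to 19.8% over the whole lists. These shares follow from unequal list lengths in the blocks as well as from shared sites.

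Merging overlapping peaks of the 4 libraries gave 146 regions on chromosome 5 and 129 on chromosome 8. On chromosome 5, 53 regions (36.3%) had a peak in both FL and neither del-cIDR list, against 17.5% of the 43029 regions over the whole lists. Chromosome 8 had 74 (57.4%). With 1 FL library left out, the number on chromosome 5 was 88 or 90. Regions in both del-cIDR and neither FL list numbered 9 (6.16%) and 11 (8.53%), against 17.7% overall. The 9 became 14 without FL replicate 2, 14 without del-cIDR replicate 1 and 16 without del-cIDR replicate 2; the 11 became 20 and 17 without the one or the other del-cIDR library. Peaks of all 4 libraries were found at 3 (2.05%) and 2 (1.55%) regions, against 4.7% overall. The block rule used this contrast, so these shares only describe the blocks. A single FL library gave 58 regions on chromosome 5 and 22 on chromosome 8, and a single del-cIDR library 12 and 15. FL-only regions had a median width of 729 bp on chromosome 5 and 432.5 bp on chromosome 8, against 543 bp for such regions overall.

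FL-only regions were ranked by the −log10 q of their peaks, the caller's measure of how far a peak stands above background. The leading one on chromosome 5 ran from 104587200 to 104587661. Its enrichment was 7.996-fold and 4.80-fold, at ranks 185 and 179. It belonged to the mixed run from 104583128. The widest region, from 104665351 to 104670878, came next at ranks 206 and 437. Then followed 104588173 to 104588983, at 3.93-fold and 3.94-fold with ranks 447 and 274, and the second widest region from 106782436, at ranks 1299 and 2048. The last of the 5, from 103998663 to 104000776, crossed the lower edge of the block and stood at ranks 2774 and 3537. Both ranks belong to peaks with summits below the edge. The region was counted through the FL replicate 2 peak of 244 bp and 2.24-fold enrichment, its one peak with a summit inside the block. High rank thus did not need high enrichment on this chromosome.

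All 5 leading FL-only regions of chromosome 8 lay in its runs, near their start. The region from 19822245 to 19823597 in the first run ranked 96 and 70 in the FL lists. It was followed by 20004051 to 20004634 in the second run, with 9.74-fold and 7.69-fold enrichment at ranks 146 and 111. The first run gave another, from 19820696 to 19821292, with 14.5-fold and 7.44-fold at ranks 174 and 217. The third run held 20128313 to 20129402, at 9.60-fold and 7.68-fold with ranks 240 and 207, and the fourth 20544037 to 20544759, at 9.62-fold and 6.25-fold with ranks 282 and 250. Replicate 2 had the lower enrichment in each of the 5.

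Sites of both genotypes were mostly narrow on chromosome 5. The 14 regions there with a peak of both genotypes had a median width of 307.5 bp, and 3 of them had all 4 libraries. The region from 105906953 to 105907254 was among the best of each list, at ranks 49 and 15 in FL and 93 and 20 in del-cIDR, with 6.53-fold, 13.2-fold, 6.34-fold and 25.5-fold enrichment. At 106467041 to 106467342 enrichment was 23.4-fold and 8.14-fold in FL and 42.6-fold and 56.0-fold in del-cIDR, the highest del-cIDR values of either block. The third, from 106062649 to 106063093, had 3.45-fold to 4.12-fold enrichment in all 4 libraries. A site without a peak of FL replicate 2, from 107105564 to 107105873 had 41.1-fold and 24.1-fold in del-cIDR and 7.58-fold in FL replicate 1.

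Chromosome 8 had 7 regions of both genotypes, all inside its runs. Those of all 4 libraries lay from 20144074 to 20144570 in the third run and from 21090480 to 21091061 in the sixth. Their enrichment was at most 4.29-fold. The first had 3.77-fold and 3.00-fold in FL and 2.07-fold and 2.72-fold in del-cIDR, at ranks 1399, 1465, 3115 and 1892. The second had 4.29-fold and 3.39-fold against 1.90-fold and 3.50-fold, at ranks 2595, 2873, 9898 and 2972. The highest FL enrichment at a shared site was 20.3-fold and 6.99-fold, from 21377629 to 21378038, where del-cIDR replicate 1 had 4.01-fold and replicate 2 no peak.

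The 9 del-cIDR-only regions of chromosome 5 had a median width of 301 bp and reached 619 bp. The best by mean rank were 105055578 to 105055880, with 8.07-fold and 8.77-fold enrichment, 107559965 to 107560265, with 9.01-fold and 9.33-fold, and 104503531 to 104503831, with 8.01-fold and 9.33-fold. All 3 were 301 to 303 bp wide. On chromosome 8 the leading one, from 18914863 to 18915163, stood away from the runs with 8.26-fold and 13.5-fold at ranks 622 and 350. The next, 20583894 to 20584258 with 7.58-fold and 7.77-fold, lay in the upper part of the fourth run, and the third, 20169135 to 20169446 with 2.16-fold and 2.20-fold, in the upper part of the third run.

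FL peaks of chromosome 8 stood high in their own lists, and those of chromosome 5 did not. In FL, 49 of 98 and 46 of 91 peaks of chromosome 8 were among the best 10% of their list by −log10 q, and the median peak stood at 10.5% and 9.65% of the way down. On chromosome 5, 8 of 99 and 8 of 101 FL peaks were among the best 10%, and the medians were 49.0% and 61.2%. For del-cIDR the blocks were closer. The best 10% held 6 of 24 and 4 of 23 peaks on chromosome 8 (25% and 17.4%) and 6 of 27 and 4 of 26 on chromosome 5 (22.2% and 15.4%), with medians at 23.8% and 29.9%, and at 49.9% and 52.2%. Ranks within lists of different length show no change between genotypes. Median enrichment was 5.24-fold and 5.27-fold for FL on chromosome 8, against 3.80-fold and 3.60-fold over the FL lists. For del-cIDR there it was 2.54-fold and 3.50-fold, on either side of the 3.17-fold and 3.16-fold of those lists. On chromosome 5 it was 4.15-fold and 3.81-fold in FL and 4.03-fold and 4.20-fold in del-cIDR.

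**Figure D4:**
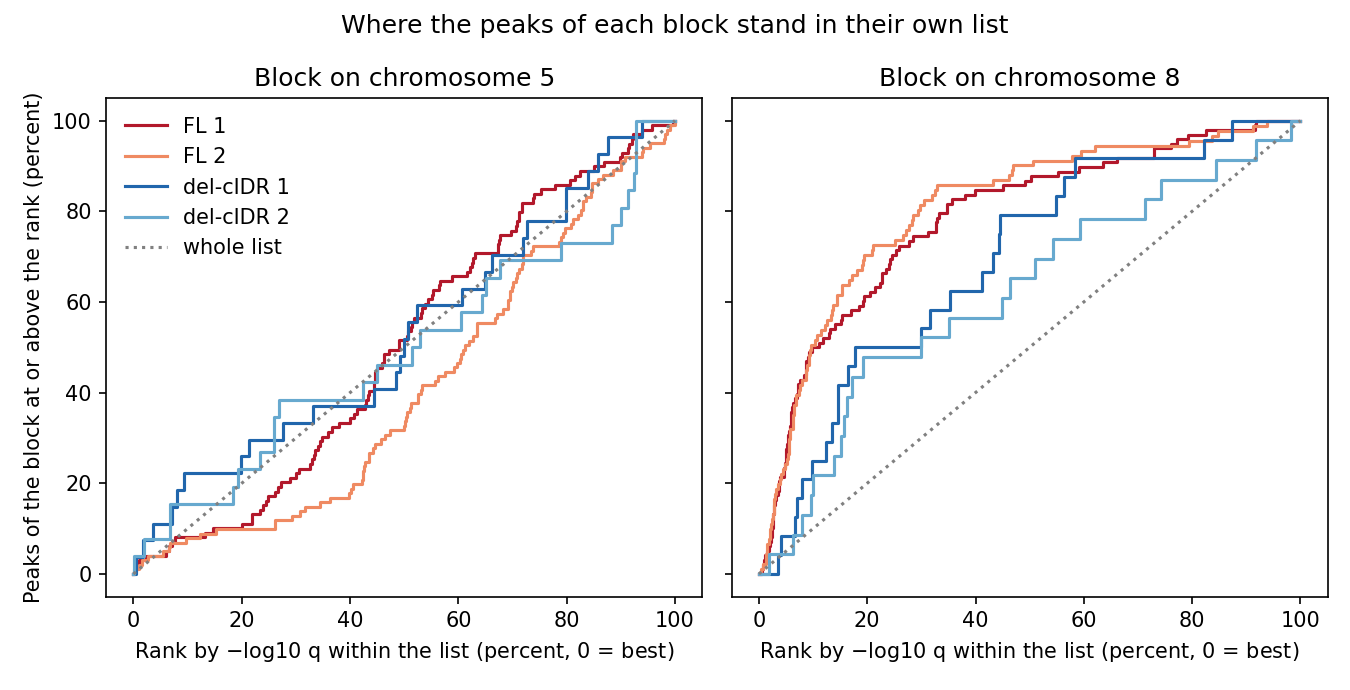
Share of the peaks of each block (y axis, percent) that stand at or above a given rank by −log10 q in their own list (x axis, percent of the list, 0 = best), by library; the dotted line is a list as a whole. On chromosome 8 the FL curves pass 50% at 10.5% and 9.65% of the list, and on chromosome 5 all 4 curves pass it between 49.0% and 61.2%.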

How the data were processed

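Peak lists of the 4 immunoprecipitates were used. MACS2, STAR, cutadapt and UMI-tools and the build GRCm39 are named per the submitters' processing notes. Tool settings, the control for peak calling and the treatment of reads that match several places were not given in the sources used here. Since every immunoprecipitate has a list of its own, peaks were called per replicate. For each peak the authors deposited a fold enrichment (a ratio), a score, both p-value and q-value as −log10, and the distance of the summit from the peak start. Every list ended at a −log10 q of 1.31 to 1.34. The score and the −log10 p-value, as deposited, entered no result, except that the p ordered ties in one alternative.

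Summits were counted per block and per bin of 250 kb, and widths, ranks by −log10 q, joined peaks and overlaps were computed with Python 3.11.15, pandas 2.3.3 and numpy 2.4.6. Values are given per library, with mean and SD over 2 replicates. Regions join peaks of the 4 lists that overlap by at least 1 bp. The counting was checked on simulated lists. No test between genotypes was run, since the blocks were chosen on that contrast. The members, the blocks and the rules for named bins and regions were chosen with earlier results of these data known, and the runs and joined-peak counts were set or singled out after the lists were seen. Named regions per block were the 5 best FL-only, 3 best all-library and 3 best del-cIDR-only regions by mean rank and the 3 widest FL peaks of each list. Named bins were the 4 with the most FL summits and those with the higher del-cIDR mean. The bin from 18.5 Mb of chromosome 8 was named after its values were seen. Regions of both genotypes, further runs and the widest del-cIDR peaks were named after their values were seen. Genes and sequences were not analysed here, since the reference used here is on GRCm38.p6.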

Additional observations from a re-analysis of the deposited data

How the results depend on the processing

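No paired analysis was possible because the blocks were chosen on the contrast between the genotypes, so no result comes from a test, and the labels do not say that the shared replicate numbers mark pairs. The ratio of FL to del-cIDR peaks on chromosome 5 was 4.21 with a −log10 q of at least 5, 3.34 with at least 4-fold enrichment, 4.11 with 16636 peaks per list and 1.62 with peaks within 5 kb joined. On chromosome 8 it was 4.30 with that q, 10.3 with that enrichment and 0.861 with joined peaks, the one reversal, since several peaks then count as 1. With at least 4-fold enrichment, FL-only regions numbered 25 and 45 on chromosomes 5 and 8, and del-cIDR-only regions 5 and 2. With 1 library left out, FL-only regions ranged from 55 to 90 on chromosome 5, and del-cIDR-only regions from 10 to 16 and from 11 to 20, since 1 library then defines a genotype. FL peaks of 2 kb or wider over both lists numbered 8 on chromosome 5 and 1 on chromosome 8. These became 38 and 15 with joined peaks and 22 and 8 at 1 kb, and ranged from 2 to 8 and from 0 to 1 with 1 library left out, lowest without FL replicate 1. The 11 runs of chromosome 5 became 7 with neighbours within 50 kb. Bins of 500 and 100 kb, scaling per 10000 peaks, bins with at least 4 summits, a 50% overlap and merging within 100 bp moved no count by over 1.5 times. Except where stated, the cause was not tested. Read depth is unknown, so a peak missing from a list may lie under its limit of detection.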
